A study of Mus musculus with 6 samples.

Results

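Pre-mRNA splicing removes introns in the spliceosome, a machine built from small nuclear RNAs and their bound proteins (snRNPs) together with many further factors. SR proteins bind exons and recruit the machinery, hnRNP proteins coat nascent RNA and often oppose or shift splice site choice, and the U2AF, SF3A, SF3B and PRPF proteins recognise the end of the intron and assemble and activate the complex. These genes are active in nearly all cells, and their transcripts are usually abundant in growing embryonic tissue. Here they are the genes whose symbol begins with Srsf, Hnrnp, Snrp, Sf3a, Sf3b, Prpf or U2af in the array's annotation. They were 52 genes of the 8251 that the annotation names singly, read by 71 probe sets, each a group of short oligonucleotides designed against a transcript. By prefix they were 9 Srsf, 16 Hnrnp, 8 Snrp, 8 Sf3a or Sf3b, 8 Prpf and 3 U2af genes.

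RNA came from dissected mouse lung at embryonic day E11.5, with 1 sample on each of 6 arrays. The branching region, 3 arrays, took in the lungs of both sides, and the non-branching region, 3 arrays, held the main bronchi and some trachea. No genotype, strain, treatment or allele is given in the labels for either group. The labels name replicates 1 to 3 without saying whether they were separate embryos or pools, so the p-values reflect only how these samples vary, possibly for technical reasons, and in whole tissue fewer cells of a type and less RNA per cell cannot be told apart. Of 12 lung epithelium markers measured, 9 were above the background intensity of 147 on all 6 arrays, and their summed intensity was 9252 to 10172 in branching and 9172 to 10362 in non-branching. Array medians ran from 212 to 229.

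The comparison asked which of these genes differ between the regions, and most members had a somewhat higher mean in branching, while few single genes passed the test. Of the 52 genes, 51 passed the filter on dim signals, and 41 of those (80.4%) had a higher mean in branching, against 49.0% of all 6798 genes tested. Hnrnpd, an RNA-binding hnRNP gene that also acts in mRNA decay, was 1.51-fold higher in branching, and Prpf31, a gene of the U4/U6 snRNP, was 1.73-fold higher. These were the 2 genes that rose at an adjusted p under 0.05 (limma, Benjamini-Hochberg over all probe sets), 3.92% of the members tested, where 1.0% of all genes tested were higher and 1.32% lower by this rule. No member fell, and at an unadjusted p under 0.05 there were 16 members higher (31.4%, against 7.16% of all genes) and 0 lower (against 8.43%).

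The sizes were modest. The median log2 difference, branching minus non-branching, was 0.22 over the 51 genes and -0.0083 over all genes tested. The differences of single members ran from -0.32 to 0.80, so none of the 51 reached 2-fold, a size that 6.59% of all genes tested reached. The median absolute difference was 0.25 for the members and 0.26 for all genes. All 3 branching values lay above all 3 non-branching values for 15 members (29.4%), an arrangement found in 10.2% of all genes tested. The reverse arrangement held for 2 members, Prpf6 and Sf3b1 (3.92%), against 11.7% of all genes.

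**Figure D1:**
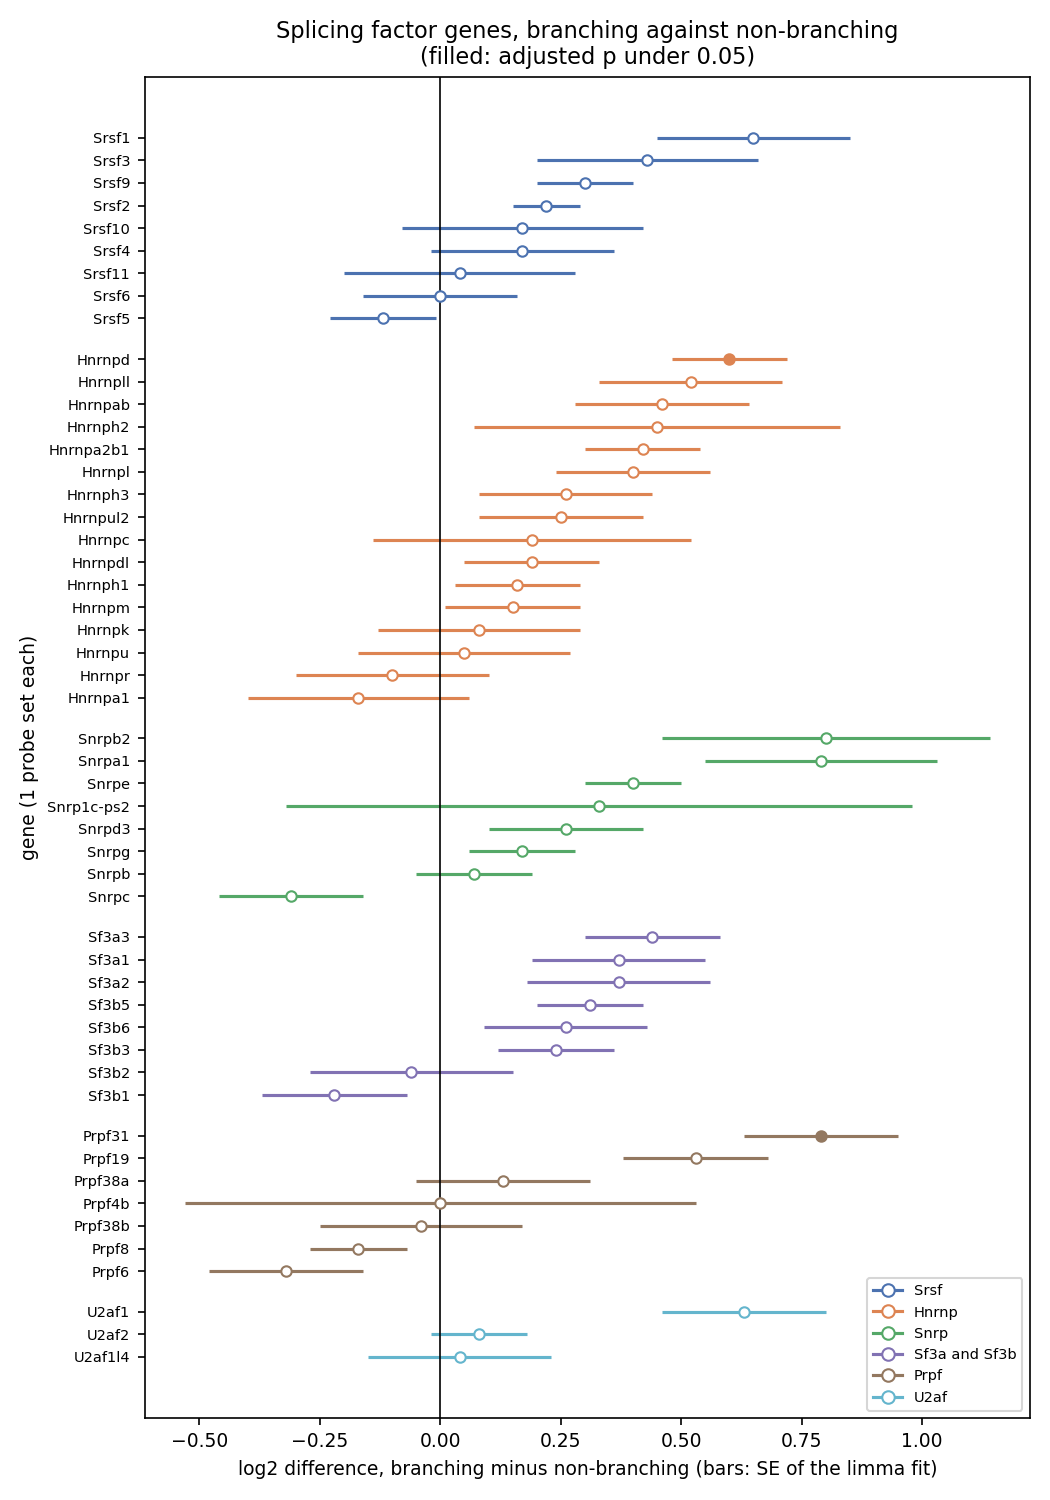
Log2 difference (x axis, branching minus non-branching) with its standard error for each of the 51 genes tested (y axis, 1 probe set each), grouped and coloured by symbol prefix, with filled points for an adjusted p under 0.05. Of the 51 points, 41 lie right of 0, and the filled points are Hnrnpd and Prpf31.

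The hnRNP genes held the first of the 2 genes that rose. Of 16 Hnrnp genes tested, 1 rose, none fell and 15 did not pass, with 5 at an unadjusted p under 0.05, and 14 had a higher mean in branching (median log2 difference 0.22). Counts in this and the later prefix groups stand beside 1.0% higher and 1.32% lower among all genes tested at an adjusted p under 0.05. At an unadjusted p those shares were 7.16% and 8.43%, and every such member in each group was higher. Hnrnpd (Entrez gene 11991) had intensities of 4148, 4829 and 5084 on branching replicates 1, 2 and 3 and of 3551, 2764 and 2988 on the non-branching replicates. The lowest branching array was above the highest non-branching array, and the branching mean was 4687 ± 484 (SD, n = 3) against 3101 ± 406. Its log2 difference was 0.60 ± 0.12 (SE, limma adjusted p = 0.0422). The call held when replicate 1 of either region was left out (limma adjusted p = 0.0402 for branching, 0.0362 for non-branching). It was lost when branching replicates 2 or 3 were dropped in turn (adjusted p = 0.124 and 0.169), and likewise for non-branching replicates 2 and 3 (adjusted p = 0.150 and 0.172). It was also lost without the variance trend (limma adjusted p = 0.27), with no probe set filtered out (0.118) and with each array centred on its median (0.051).

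Below are the 250 bases before the RefSeq start of Hnrnpd (GRCm38.p6, chr5:99978939-99979188, minus strand, printed in the direction of the gene), shown because it is one of the genes that rose. Capitals mark matches on either strand to 5 motifs. An E-box was searched as CACGTG and an ETS-type site, the binding motif of that factor family, was searched as CCGGAAG. The box named for its letters CCAAT was searched as such. For the GC-rich Sp1-type element the letters searched were GGGCGG, and for the element bound by TBP they were TATAAA.
Hnrnpd: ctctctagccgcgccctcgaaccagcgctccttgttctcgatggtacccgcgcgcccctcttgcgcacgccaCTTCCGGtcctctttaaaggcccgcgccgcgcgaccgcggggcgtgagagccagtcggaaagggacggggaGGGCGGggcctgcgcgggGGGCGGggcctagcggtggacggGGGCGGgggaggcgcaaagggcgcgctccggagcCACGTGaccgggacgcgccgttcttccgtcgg
This window held 1 ETS match, 3 GC boxes and 1 E-box, none overlapping another, and the E-box began 32 bases before the start. Windows were found for 46 of the 52 genes. An E-box stood in 2 of the 46 (4.35%) and in 6.64% of the windows of 17491 protein-coding genes. An ETS match stood in 15 of the 46 (32.6%, against 9.12%), a GC box in 31 (67.4%, against 42.7%), a CCAAT box in 22 (47.8%, against 36.3%) and a TATA box in 4 (8.70%, against 12.4%). Over all 27025 windows, non-coding genes included, the shares were 6.05%, 7.05%, 32.9%, 34.5% and 13.0% in that order of motifs. A match describes the letters of a window and not a bound site.

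Hnrnpa2b1, whose protein packages nascent RNA and takes part in RNA transport, had intensities of 7441, 8715 and 8892 in branching and of 7086, 5278 and 6416 in non-branching. The groups did not overlap, but the log2 difference of 0.42 ± 0.12 did not pass (limma adjusted p = 0.138). A dimmer probe set of the same gene differed by 0.03 ± 0.26 (adjusted p = 0.973). Hnrnpll, a gene known from the alternative splicing of Ptprc in lymphocytes, had 1107, 1739 and 1338 in branching and 980, 805 and 1104 in non-branching. Its lowest branching value stood just above its highest non-branching value (0.52 ± 0.19, adjusted p = 0.245).

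Among the other hnRNP genes, Hnrnpab, Hnrnpl and Hnrnph3 had higher means in branching with overlapping arrays. Hnrnpul2 had all 3 branching values above all non-branching values on both of its probe sets. Hnrnph2 was above background on all 3 branching arrays (156 ± 13.0) and on no non-branching array (114 ± 16.1), so no size is given for it. Hnrnpa1, a regulator that often acts against SR proteins, and Hnrnpr were the 2 with lower means in branching, with log2 differences of -0.17 ± 0.23 and -0.10 ± 0.20. Hnrnpk, Hnrnpu, Hnrnpm, Hnrnph1, Hnrnpdl and Hnrnpc differed by 0.05 to 0.19, each with overlapping arrays. The probe set used for Hnrnpdl was of a less specific design.

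The Prpf genes, named after yeast pre-mRNA processing mutants, held the other gene that rose. Of 7 tested, 1 rose, none fell and 6 did not pass, with 2 at an unadjusted p under 0.05, and the median log2 difference was 0.00 (-0.13 to 0.09 with 1 array left out). Prpf31 (Entrez gene 68988), whose protein binds the U4 snRNA and holds the U4/U6 and U5 particles together, had intensities of 1392, 1085 and 1078 in branching and of 613, 740 and 693 in non-branching. Every branching array exceeded every non-branching array, with means of 1185 ± 180 and 682 ± 64.4 (SD, n = 3). The log2 difference was 0.79 ± 0.16 (limma adjusted p = 0.0398). The call was lost whichever array was left out, while the difference stayed between 0.67 and 0.85. Omitting branching replicates 1, 2 and 3 in turn gave an adjusted p of 0.0981, 0.0821 and 0.0986, and omitting the non-branching replicates in turn gave 0.10, 0.0896 and 0.138 (limma). It was also lost without the variance trend (limma adjusted p = 0.179) and with no probe set filtered out (0.0811).

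The 250 bases before the RefSeq start of Prpf31 (GRCm38.p6, chr7:3629735-3629984, plus strand) follow, with the same motifs in capitals, as the second gene that rose.
Prpf31: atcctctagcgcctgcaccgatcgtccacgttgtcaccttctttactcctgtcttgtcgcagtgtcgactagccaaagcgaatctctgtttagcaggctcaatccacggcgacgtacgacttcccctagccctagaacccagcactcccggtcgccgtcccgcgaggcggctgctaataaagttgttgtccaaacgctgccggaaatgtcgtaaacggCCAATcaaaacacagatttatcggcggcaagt
This window held 1 match, a CCAAT box that began 32 bases before the start.

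Prpf19, which encodes a ubiquitin ligase needed to activate the spliceosome, had 1785, 1483 and 1790 in branching and 1283, 975 and 1258 in non-branching. The arrays of the regions did not overlap, and the log2 difference was 0.53 ± 0.15 (limma adjusted p = 0.126). A second, less specific probe set of Prpf19 was below background on 2 arrays and differed by 0.05 ± 0.74. Prpf6 and Prpf8, which encode proteins that join Prpf31 in the U4/U6.U5 particle, had lower means in branching. Prpf6 had 1753, 1849 and 1700 in branching and 1921, 2858 and 1947 in non-branching. All its branching values were lower, and non-branching replicate 2 was far above the other arrays (-0.32 ± 0.16, adjusted p = 0.400). Without that array the difference was -0.13 (adjusted p = 0.73). Prpf8, the central scaffold protein of the spliceosome, had means of 2697 ± 264 and 3017 ± 96.9, with overlapping arrays and a log2 difference of -0.17 ± 0.10. Prpf38a, Prpf38b and Prpf4b differed by 0.13 ± 0.18, -0.04 ± 0.21 and 0.00 ± 0.53. Both probe sets of Prpf39 were below background on all 6 arrays and were not tested.

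**Figure D2:**
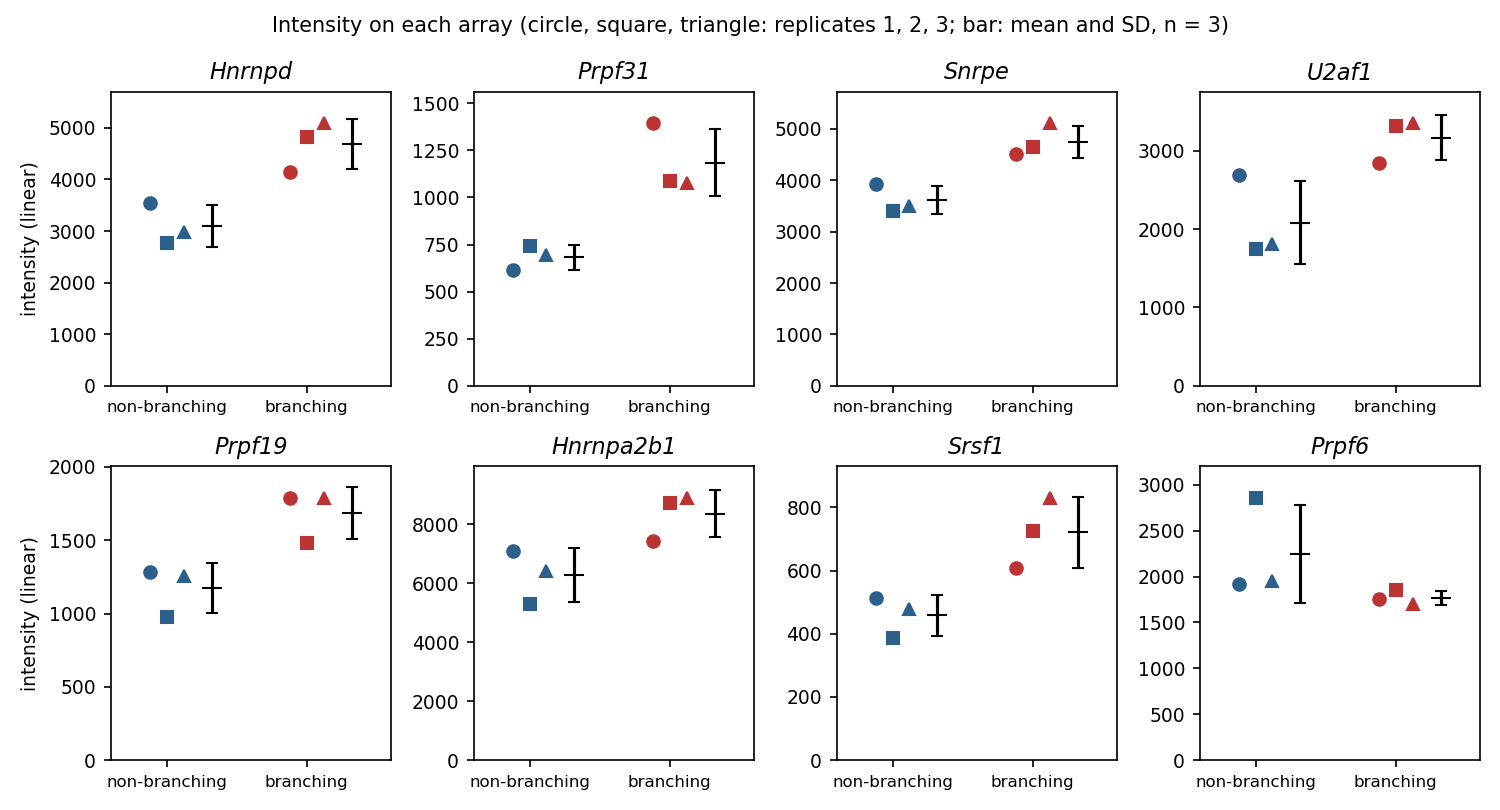
Intensity on a linear scale (y axis) for 8 members on each of the 6 arrays, with the mean and SD of the 3 arrays of each region as bars. For Hnrnpd, Prpf31, Snrpe, U2af1, Prpf19, Hnrnpa2b1 and Srsf1 all branching arrays lie above all non-branching arrays, and for Prpf6 they lie below.

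The Snrp genes encode the Sm proteins that form a ring on the spliceosomal snRNAs and proteins particular to U1 or U2, and 1 of the 8 here, Snrp1c-ps2, is a pseudogene. Of the 8 tested none passed, with 3 at an unadjusted p under 0.05, and 7 had a higher mean in branching (median log2 difference 0.30, 0.17 without branching replicate 3 and 0.26 with the pseudogene left out). Snrpe, an Sm ring gene, had 4498, 4641 and 5100 in branching and 3922, 3406 and 3504 in non-branching on a probe set of a less specific design. Its groups were separate, and the log2 difference of 0.40 ± 0.10 did not pass (limma adjusted p = 0.0805). The other Sm ring genes differed less, with 0.26 ± 0.16 for Snrpd3, 0.17 ± 0.11 for Snrpg and 0.07 ± 0.12 for Snrpb, the last on a less specific probe set.

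The U2 genes Snrpa1 and Snrpb2, whose proteins bind each other on the U2 snRNA, differed by more than the Sm ring genes, without passing. Snrpa1 had 496, 664 and 734 in branching and 379, 282 and 438 in non-branching, with no overlap (0.79 ± 0.24, limma adjusted p = 0.156). Snrpb2, on a less specific probe set, had 641, 271 and 392 in branching and 220, 278 and 213 in non-branching, so that 1 branching array lay within the non-branching range (0.80 ± 0.34, adjusted p = 0.316). Branching replicate 1 was far above the other arrays, and without it the difference was 0.47. Its other probe set, less specific too and near background, differed by 0.23 ± 0.43. Snrpc, a U1 gene, was the member of this group with a lower mean in branching, 1826 ± 268 against 2257 ± 291 (-0.31 ± 0.15, adjusted p = 0.375). The pseudogene Snrp1c-ps2, on a less specific probe set, ran from 532 to 3012 across the branching arrays and from 493 to 2375 across the non-branching arrays. Its log2 difference of 0.33 ± 0.65 (adjusted p = 0.871) ran from -0.25 to 1.01 with 1 array left out. Signal from Snrpc transcripts on that probe set was not tested.

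The Sf3a and Sf3b genes encode the complexes that bind the branch site with the U2 snRNP. Of 8 tested none passed, with 2 at an unadjusted p under 0.05, and 6 had a higher mean in branching (median log2 difference 0.29). All 3 Sf3a genes were among those 6. Sf3a3 had 1495, 1596 and 1514 in branching and 1270, 950 and 1193 in non-branching, without overlap (0.44 ± 0.14, limma adjusted p = 0.170). Sf3a1 had 810, 977 and 952 against 739, 576 and 818, where the lowest branching array fell below the highest non-branching array (0.37 ± 0.18, adjusted p = 0.374). Sf3a2 differed by 0.37 ± 0.19 on its brightest probe set and by 0.21 ± 0.09 on the other, both of a less specific design.

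The Sf3b genes were mixed. Sf3b5, a small subunit gene, had 2969, 2457 and 2602 in branching and 2191, 2089 and 2184 in non-branching, with no overlap (0.31 ± 0.11, limma adjusted p = 0.215). Sf3b6, whose protein touches the branch site adenosine, differed by 0.26 ± 0.17, and Sf3b3 by 0.24 ± 0.12. The largest subunit gene, Sf3b1, had 820, 726 and 766 in branching and 1021, 849 and 834 in non-branching. All its branching values were lower on this probe set (-0.22 ± 0.15, adjusted p = 0.561), while the dimmer probe set differed by 0.02 ± 0.25. Sf3b2, on a less specific probe set, differed by -0.06 ± 0.21.

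The SR protein genes had a median log2 difference of 0.17, and of 0.16 to 0.28 with 1 array left out, the highest without branching replicate 1. Of 9 tested none passed, with 3 at an unadjusted p under 0.05, and 7 had a higher mean in branching. Srsf1, the founding member of the family, had 607, 726 and 831 in branching and 513, 387 and 477 in non-branching on its brightest probe set. The regions did not overlap (0.65 ± 0.20, limma adjusted p = 0.154). A second probe set gave 564, 502 and 640 against 399, 458 and 432, again without overlap (0.40 ± 0.19), and 2 more were below background on all 6 arrays, of which 1 was tested (-0.25 ± 0.62).

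Srsf9 had 3024, 2898 and 2928 in branching and 2562, 2281 and 2375 in non-branching, a separation with little spread in branching (0.30 ± 0.10, limma adjusted p = 0.181). Srsf2, which acts in splicing and in transcription elongation, had 26812, 27093 and 25381 against 22662, 23018 and 22442, read by a less specific design (0.22 ± 0.07, adjusted p = 0.199). These arrays were also separate, and its other probe set, with overlapping arrays, differed by 0.35 ± 0.15. Srsf3, a small SR protein that also takes part in mRNA export, differed by 0.43 ± 0.23 on its brighter, less specific probe set, and by 0.90 ± 0.29 (adjusted p = 0.181) on the other, where the arrays did not overlap. Srsf4, Srsf10 and Srsf11 differed by 0.17, 0.17 and 0.04, and Srsf6 and Srsf5 by 0.00 and -0.12, all with overlapping arrays.

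The U2AF proteins pair a large subunit, which binds the polypyrimidine tract, with a small one, which reads the AG at the end of the intron. U2af1, the gene of the small subunit, had 2839, 3313 and 3346 in branching and 2688, 1750 and 1806 in non-branching. Its regions did not overlap, although non-branching replicate 1 came close to the branching arrays (0.63 ± 0.17, limma adjusted p = 0.104), and without that array the gene passed (0.83, adjusted p = 0.0208). With any other array left out U2af1 did not pass (limma adjusted p = 0.121 to 0.312), nor without the variance trend (0.345). U2af2, the gene of the large subunit, had 11085, 9404 and 8744 against 8756, 9318 and 9461. These arrays overlapped and the difference was 0.08 ± 0.10 (adjusted p = 0.782). The related U2af1l4 had 848, 812 and 652 against 588, 840 and 839, again overlapping (0.04 ± 0.19, adjusted p = 0.956). Of the 3 genes none passed, with U2af1 alone at an unadjusted p under 0.05.

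Some genes were read by several probe sets, which measure the same 6 RNA samples and are no further replicates. Of 13 members with more than 1 tested probe set, 11 (84.6%) had a higher mean in branching on each of them, against 28.3% of all 1277 such genes. The other two were Srsf1 and Sf3b1, and in each the probe sets of opposite sign included a dimmer one that differed by less than its standard error. Several of the 11 genes also had such a probe set, so a shared sign says little there. Examples were the dimmer probe sets of Hnrnpu (0.15 ± 0.41), Snrpb2 (0.23 ± 0.43), Prpf19 (0.05 ± 0.74) and Hnrnpa2b1 (0.03 ± 0.26). The probe sets of Snrpb2 shared a sign but differed by 0.57.

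**Figure D3:**
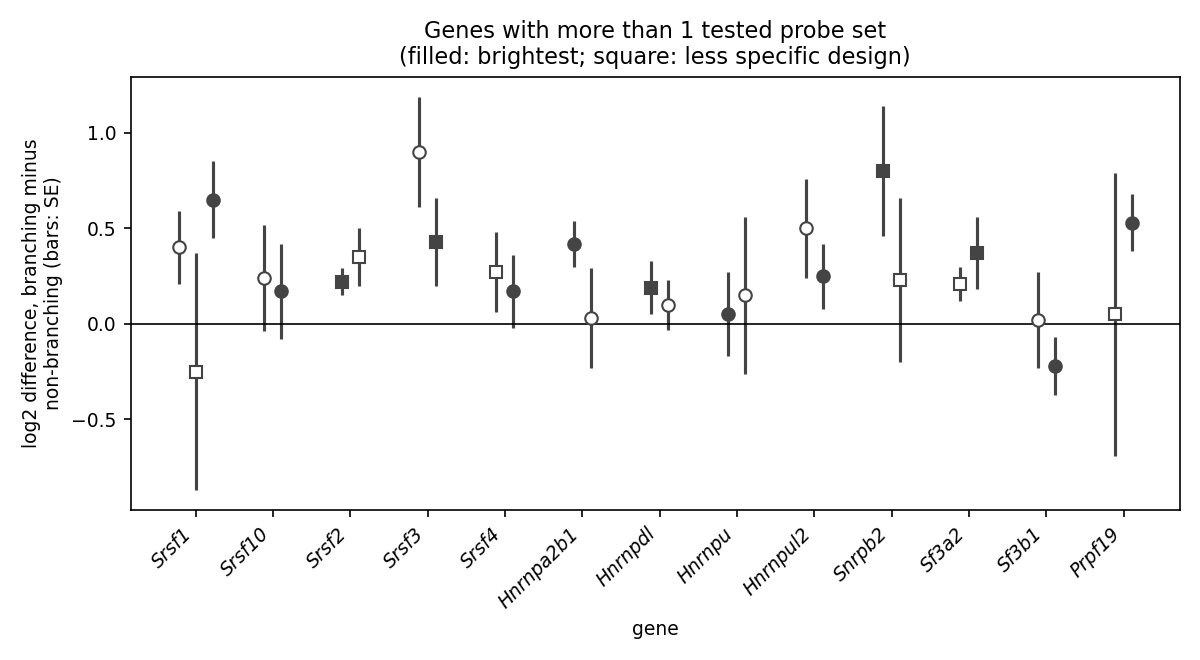
Log2 difference (y axis, branching minus non-branching) with its standard error for each tested probe set of the 13 genes (x axis) that have more than 1, with filled symbols for the brightest probe set and squares for less specific designs. All probe sets of 11 genes lie above 0, and those of Srsf1 and Sf3b1 fall on both sides.

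Single arrays weighed on this shift. Taking each gene as its deviation from its own mean over the 6 arrays, the 51 members averaged 0.02, 0.13 and 0.20 (log2) on branching replicates 1, 2 and 3 and -0.04, -0.18 and -0.13 on the non-branching replicates, so the regions did not overlap but branching replicate 1 and non-branching replicate 1 lay close together. All genes tested averaged between -0.03 and 0.03 on the same arrays. Non-branching replicate 2 held the lowest value of 23 members (45.1%, against 17.8% of all genes tested), and branching replicate 3 the highest value of 19 (37.3%, against 15.2%). Leaving out the one or the other, 36 of the 51 had a higher mean in branching, and with any other array left out 39 to 41 did. The Hnrnp, Snrp, Sf3a and Sf3b, and U2af averages did not overlap between regions, while the Srsf and Prpf averages did. Some of these gaps were narrow. The lowest branching and highest non-branching averages were 0.03 and 0.01 for Hnrnp, -0.01 and -0.06 for Snrp, and 0.00 and 0.01 for Prpf.

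**Figure D4:**
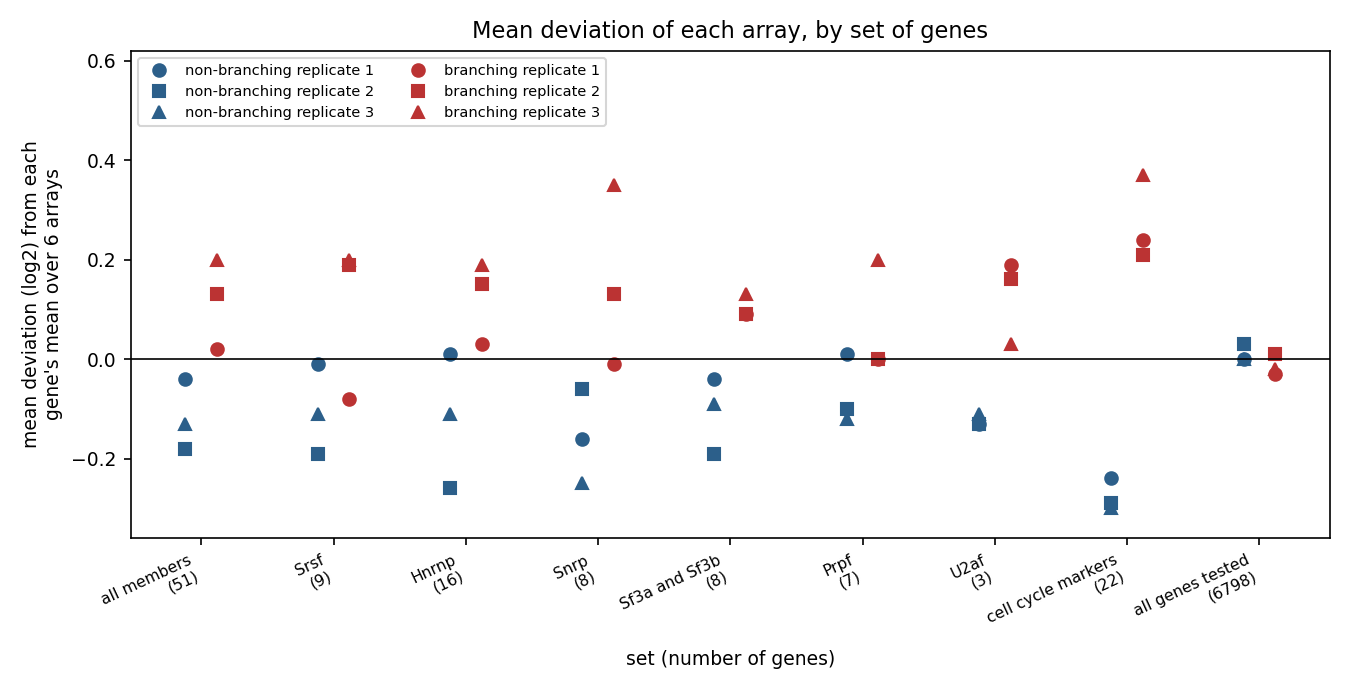
Mean deviation (y axis, log2) of each array from each gene's mean over the 6 arrays, for the members, their prefix groups, cell cycle markers and all genes tested (x axis, number of genes in brackets). Members average 0.02 to 0.20 on branching arrays and -0.18 to -0.04 on non-branching arrays, and cell cycle markers 0.21 to 0.37 and -0.30 to -0.24.

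Markers of cell division and of other tissues also differed between the regions. All 22 cell cycle markers tested had a higher mean in branching (median log2 difference 0.44). Of the 22, 4 rose (18.2%, against 1.0% of all genes tested) and none fell (against 1.32%). The summed intensity of the 23 measured was 49604 to 54419 in branching and 38344 to 39553 in non-branching. On branching replicates 1, 2 and 3 the cell cycle markers averaged 0.24, 0.21 and 0.37, and on the non-branching replicates -0.24, -0.29 and -0.30. Any link between these markers and the splicing genes was not tested. The sum of 9 red blood cell markers was 137254 to 152414 in branching and 88630 to 96173 in non-branching, and 3 of 8 tested rose (37.5%) and none fell. Their mean deviations were 0.32, 0.14 and 0.15 on branching replicates 1, 2 and 3 and -0.39, -0.19 and -0.04 on the non-branching replicates.

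Of all genes tested, 1.32% fell, the share beside which the counts below stand. Several tissues had lower marker sums in branching. These were the sums of 9 lung mesenchyme markers (16203 to 16479 against 29452 to 30450, where 4 of 7 tested fell), 7 smooth muscle markers (7091 to 7672 against 12478 to 13577, 5 of 7) and 10 cartilage markers (3098 to 3501 against 6082 to 6426, 3 of 7). Among those tested, 1 mesenchyme marker had a higher mean in branching, with all its branching values above, as did 2 cartilage markers by mean only. Above background on no array were 2 of the 9 mesenchyme and 3 of the 10 cartilage markers. Mean deviations of tested mesenchyme markers were -0.30 to -0.16 on branching arrays and 0.04, 0.30 and 0.38 on non-branching replicates 1, 2 and 3. For cartilage they were -0.38 to -0.18 and 0.03, 0.33 and 0.48, and for smooth muscle -0.63 to -0.35 and 0.48 to 0.55. Non-branching replicate 1 thus had the highest mesenchyme and cartilage sums but the lowest such deviations of the non-branching arrays. All 9 endothelial markers had lower means, of which 1 fell (median log2 difference -0.37, sums of 3884 to 4578 against 5167 to 5340). All 7 cardiac markers tested had lower means too, of which 1 fell (median -0.43, sums over 9 markers of 1921 to 2032 against 3137 to 4049). Of those 9 cardiac markers, 3 were above background on no array. The sum of 10 neuronal or neural crest markers was lower, 3741 to 4239 against 4534 to 5038, but 5 of the 10 were above background on no array, 3 of the 6 tested had a higher mean and 1 fell (median -0.03). Their mean deviations on the arrays overlapped between regions. The sums of 8 leukocyte markers overlapped as well (1768 to 1932 against 1655 to 1894). No marker was at an intensity of 0. The part of these cell types in the splicing gene differences was not tested.

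Splicing and RNA processing genes outside the prefixes were taken from 5 lists made by function. Of their 106 genes tested, 1 rose (0.943%, against 1.0% of all genes), 1 fell (0.943%, against 1.32%) and 104 did not pass, so the calls were no more frequent than over all genes. At an unadjusted p under 0.05 17 of the 106 were higher (against 7.16% of all genes) and 5 lower (4.72%, against 8.43%), and 76 had a higher mean in branching (71.7%, against 49.0%, with a median log2 difference of 0.14). Wdr77, whose protein helps Prmt5 methylate Sm proteins during snRNP assembly, rose by 0.86 ± 0.17 (limma adjusted p = 0.0369), with 943, 794 and 970 in branching and 547, 434 and 507 in non-branching. Clk1, a kinase that phosphorylates SR proteins, fell by 0.57 ± 0.11 (adjusted p = 0.0284), with 1774, 1592 and 1839 against 2629, 2644 and 2428. The arrays of the regions were separate for both genes. Each lost its call whichever array was left out, with adjusted p from 0.0585 to 0.155 (highest without branching replicate 3) for Wdr77 and from 0.0569 to 0.115 (highest without non-branching replicate 2) for Clk1.

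By list, none of 46 other spliceosome genes passed, with 31 higher in mean (median log2 difference 0.12). The smallest p-values there were those of Lsm3, a gene of the U6 snRNA ring (0.49 ± 0.11, limma adjusted p = 0.0546), and of Eftud2, the U5 GTPase gene (0.63 ± 0.14, adjusted p = 0.0593). Of 30 other splicing regulators none passed, with 25 higher in mean (median 0.20) and with Pcbp1 (0.25 ± 0.08, adjusted p = 0.187) and Elavl1 (0.31 ± 0.11, adjusted p = 0.214) at the smallest p-values. All 6 genes of the exon junction complex and mRNA export had higher means and none passed (median 0.39), led by Nxt1 (0.43 ± 0.16, adjusted p = 0.264) and Rbm8a (0.33 ± 0.13, adjusted p = 0.274). Of 10 snRNP assembly genes, 1 rose, the Wdr77 above, and 6 were higher in mean (median 0.31). Of 14 SR-related and SR kinase genes, 1 fell, the Clk1 above, and 8 were higher in mean (median 0.03).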

How the data were processed

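The deposited table gives 1 intensity per probe set and array on a linear scale. How the authors computed these deposited intensities is not given in the sources used, and equal trimmed means of 500.3 on all 6 arrays show that they had been scaled. Of 12488 probe sets, 66 controls were left out. Values below 16 were set to 16 before log2, which understates differences of dim genes. The dimmest 25% of probe sets were left out, and 9316 were fitted with limma 3.58.1 in R 4.3.3 (2 groups, variance trend, two-sided), with Benjamini-Hochberg adjustment and a threshold of 0.05. The fit was tested on simulated data, where it called 30.2% of the 2-fold and 56.1% of the 4-fold changes put in. No smaller change was put in, so these rates do not cover the members, all of which differed by less than 2-fold. A gene that did not pass may therefore still differ.

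A gene is represented by its probe set of highest mean log2 intensity. Another 7 probe sets, with several symbols of which at least 1 has such a prefix, were not used, and all 52 gene identifiers matched the RefSeq gene table. Less specific probe sets are those whose name has a letter before its last part (18 of 71). Background is the 95th percentile of 114 values of 19 bacterial and yeast control probe sets. Levels of different probe sets were not compared.

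The members and lists were chosen with earlier results of these data known. Members described with all arrays were those called, the 3 of smallest p in each prefix group and those whose probe sets disagreed. Of genes in the 5 other lists, those called were named, or the 2 of smallest p where none was. Marker lists are given by counts and sums. Hnrnpul2, Hnrnph2, Srsf3 and members given only by their difference were named after their values were seen. Promoter sequences are from RefSeq, and motifs were chosen as common promoter elements. Precision is limited by the number of arrays. Alternatives tried were a replicate block, quantile normalization, median centring, other filters and floors, adding 16, no variance trend, array weights, a threshold of 0.10, other choices of probe set, the pseudogene left out and each array left out.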

Additional observations from a re-analysis of the deposited data

How the results depend on the processing

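Replicates with the same number did not deviate together (correlations of -0.015 to 0.013 over the probe sets tested, and -0.049 to 0.052 for unlike numbers). Whether they shared a dissection or a batch is not given in the labels. Correlations over all probe sets cannot settle it. With the replicate number as a replicate block, limma called 0 members (adjusted p = 0.118 for both Hnrnpd and Prpf31). It also called 0 genes of the 5 other lists (22 at an unadjusted p under 0.05) and 114 of all probe sets in place of 189. Of the member probe sets, 19 had an unadjusted p under 0.05 in the main fit (16 counted as genes), and 16 with the block. The count of members called, 2, was 1 with each array centred on its median and 0 to 2 with 1 array left out. It was 0 without the filter on dim probe sets (17 member probe sets at an unadjusted p) and 0 without the variance trend (11 member probe sets). In the 5 lists the count of 2 became 1 with median centring, 0 without the filter (22 at an unadjusted p), 0 without the trend (18), 4 with the dimmer 50% left out, 4 with a floor of 64, 4 with array weights, 5 at a threshold of 0.10 and 0 to 2 with 1 array left out. Over all probe sets 100 passed without the filter, 22 without the trend, 359 at 0.10 and 61 to 150 with 1 array left out. The members' median difference was 0.16 to 0.26 under all alternatives run for it, and 36 to 42 members had a higher mean, 38 of 48 with the dimmer 50% left out (this count under the alternatives, and the medians without the pseudogene, were run after seeing the data). The Snrp median was 0.17 to 0.39 with 1 array left out. The Prpf median, 0.00, was -0.02 without the filter, 0.12 with array weights and -0.13 to 0.09 with 1 array left out, below 0 when branching replicate 3 (-0.12) or non-branching replicates 2 (-0.13) or 3 (-0.05) were dropped. The U2af median was -0.02 to 0.15 with 1 array left out, the lowest without branching replicate 1, and the cause of these changes was not tested. Snrpe passed with array weights (adjusted p = 0.0496). Signal near background limits Hnrnph2, Prpf39, Prpf4b and the dimmer probe sets of Srsf1, Hnrnpu, Snrpb2 and Prpf19.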
